A study of Rattus norvegicus with 6 samples.

Results

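The 8 genes described here encode the enzymes that phosphorylate choline and build phosphatidylcholine from it, the enzymes of the parallel ethanolamine route, and the dehydrogenase that oxidises choline: Chka, Chkb, Pcyt1a, Pcyt1b, Pcyt2, Cept1, Pemt and Chdh. They were chosen by symbol, as the array probes whose RefSeq transcript belongs to these genes, and they are 8 of 9627 genes that could be named among 26419 probes. Each was measured by 1 probe, a word used here for 1 row of values named by a RefSeq transcript. Chka was known beforehand to be among the genes with the largest tea-control differences, so the differences between groups below are a description and are not tested.

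Livers came from male Sprague Dawley rats, all on a high-fat diet of 60%, and were taken at 9 weeks. The dark tea group of 3 livers had received, by stomach tube, a dark tea fermented by the fungus Eurotium cristatum, CGMCC No. 8730. The control group of 3 livers had received distilled water in the same way. No tissue of rats on a normal diet was analysed here, so what the diet itself did to these genes is outside the comparison, and whether each array stands for a different animal is not given in the labels.

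Phosphatidylcholine is the main phospholipid of cell membranes and of the coat of plasma lipoproteins, and the liver also secretes it into bile. It is made by a route in which choline is phosphorylated, activated to CDP-choline and joined to diacylglycerol. Liver has a further route, in which the ethanolamine branch supplies phosphatidylethanolamine and PEMT methylates it with S-adenosylmethionine as donor. Choline that is not used for phospholipid can be oxidised in mitochondria to betaine, a methyl donor for methionine synthesis. Lack of choline, or loss of PEMT in mice on a choline-poor diet, is known to lead to fat accumulation in liver.

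Chka, the alpha choline kinase of the first step, had the most negative difference between tea and control, and Chkb and Pcyt2 were lower by smaller amounts. The promoters of Chka, Chkb, Pcyt2 and Pemt are shown because these are the 4 genes whose tea arrays all lay below all control arrays. They run from 250 bases before to 50 bases after the RefSeq start on GRCr8, at chr1:210505865-210506164 (plus strand), chr7:122383900-122384199 (minus strand), chr10:106394419-106394718 (minus strand) and chr10:45341898-45342197 (minus strand), each written 5′ to 3′ on the strand of its gene. Capitals mark CCAAT and GGGCGG on either strand, so that ATTGG and CCGCCC are the same motifs read on the other strand.
Chka: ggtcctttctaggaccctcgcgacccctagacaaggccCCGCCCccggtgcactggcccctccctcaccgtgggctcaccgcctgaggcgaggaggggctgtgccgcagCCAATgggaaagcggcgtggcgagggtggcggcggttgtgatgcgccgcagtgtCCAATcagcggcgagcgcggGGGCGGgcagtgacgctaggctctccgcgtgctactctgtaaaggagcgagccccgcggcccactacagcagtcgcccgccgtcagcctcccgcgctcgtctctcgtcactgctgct
Chkb: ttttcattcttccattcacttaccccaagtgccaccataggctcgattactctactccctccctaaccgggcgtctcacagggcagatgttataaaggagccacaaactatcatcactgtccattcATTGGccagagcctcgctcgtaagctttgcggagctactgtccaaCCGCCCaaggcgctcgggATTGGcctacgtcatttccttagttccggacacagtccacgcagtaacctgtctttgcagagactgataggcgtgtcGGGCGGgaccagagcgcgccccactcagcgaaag
Pcyt2: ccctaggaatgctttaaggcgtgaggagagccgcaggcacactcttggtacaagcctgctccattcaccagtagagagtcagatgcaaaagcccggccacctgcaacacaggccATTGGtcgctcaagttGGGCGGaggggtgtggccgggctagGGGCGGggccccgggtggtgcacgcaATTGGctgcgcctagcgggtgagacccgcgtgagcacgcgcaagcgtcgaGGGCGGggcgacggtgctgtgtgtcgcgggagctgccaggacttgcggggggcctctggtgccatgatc
Pemt: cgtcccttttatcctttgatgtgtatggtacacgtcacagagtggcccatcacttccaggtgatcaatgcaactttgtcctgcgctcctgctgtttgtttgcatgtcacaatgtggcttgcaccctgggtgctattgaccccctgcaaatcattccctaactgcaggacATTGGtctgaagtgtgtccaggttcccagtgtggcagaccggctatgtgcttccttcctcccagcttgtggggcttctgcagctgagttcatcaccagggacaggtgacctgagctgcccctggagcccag

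CCAAT, the core of the box bound by the factor NF-Y, occurred 2 times in each of the Chka, Chkb and Pcyt2 promoters and 1 time in that of Pemt. In Chka the boxes began 141 and 87 bases before the start, in Chkb 124 and 61, in Pcyt2 136 and 69, and in Pemt 81. The promoters of Pcyt1a, Pcyt1b, Cept1 and Chdh held 0. Of all 33469 promoters of this length in the table, 37.5% held CCAAT, a motif added to the search after the Chka sequence had been read. How CCAAT falls over the 8 promoters is therefore a description and supports nothing about the differences between groups. GGGCGG, a GC box of the kind bound by Sp1, was found in 33.1% of all promoters and in those of Chka, Chkb, Pcyt1a, Pcyt2, Cept1 and Chdh. CACGTG, the E-box of the clock activators, occurred in none of the 8 windows and in 6.42% of all promoters. TTATGNAA, the D-box of Dbp and its relatives, was likewise in none of the 8 and in 3.66% of all. AGGTCA, the half-site of the ROR and Rev-erb receptors, was in the windows of Pemt and Chdh and in 16.2% of all. TCACNCCAC, a sterol regulatory element, was in that of Pcyt1a and in 1.12% of all. Both strands were searched, and no match overlapped another in the 8 windows. A match is only a run of letters, and none of the windows was tied to a factor by these data.

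Chka, which commits choline to phospholipid by making phosphocholine, had log2 intensities of 6.89, 6.37 and 6.39 in tea replicates 1, 2 and 3. In control replicates 1, 2 and 3 it was 8.94, 8.19 and 9.90. All 3 tea arrays lay below all 3 controls, with a gap of more than 1 log2 unit between the highest tea and the lowest control array. The controls were the more scattered group, at 9.01 ± 0.86 against 6.55 ± 0.30 with tea (SD, n = 3 each). The difference was -2.46 ± 0.43 on the log2 scale (limma SE, 95% confidence interval -3.41 to -1.51), which is 5.50-fold lower with tea. Of 26419 probes, 3 had a more negative difference. The random control row of the array, the nearest measure of background in the values, lay between 5.05 and 5.40 over the 6 arrays. Chka was 1.24 to 1.84 log2 units above it with tea and 3.09 to 4.86 above it in controls. As the tea level approached that row, the size of the fold is less certain than its direction. In bulk liver, less RNA per cell and fewer cells expressing a gene cannot be told apart.

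Chkb, the beta choline kinase, whose loss in mice causes a muscular dystrophy, had log2 intensities of 8.21, 8.62 and 7.58 with tea. Its control values were 9.44, 9.03 and 9.17. The groups did not overlap, and tea replicate 3 was the lowest array and control replicate 1 the highest. The difference was -1.08 ± 0.34 (SE, interval -1.83 to -0.32), or 2.11-fold lower. Without tea replicate 3 it was -0.80, and without tea replicate 2 it was -1.32. With arrays weighted by their scatter it was -0.65. Within arrays the log2 ratio of Chka to Chkb shifted by -1.39 ± 0.58 with tea (SE, n = 3 each), with an interval from -3.00 to 0.23 that includes 0. That ratio did not overlap between groups and ran from -2.25 to -1.19 with tea and from -0.84 to 0.73 in controls.

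**Figure D1:**
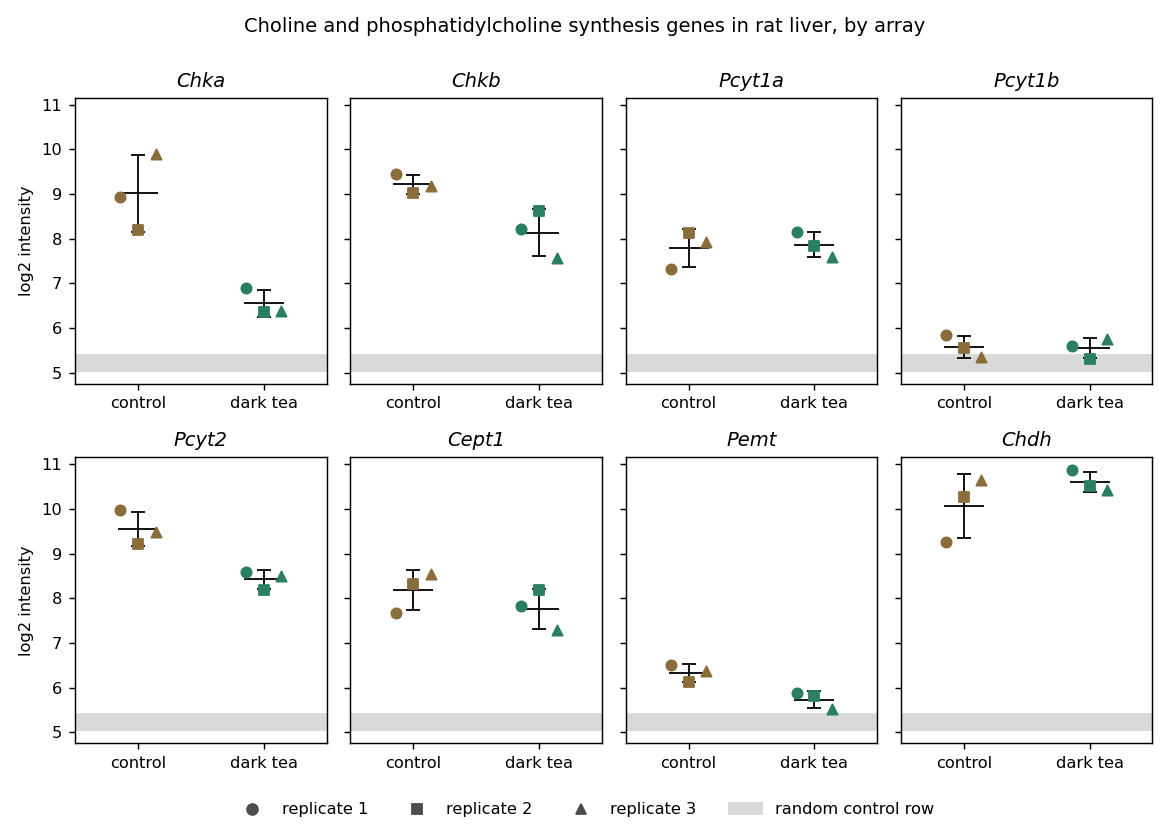
Log2 intensity of the 8 genes on each of 6 arrays, control and dark tea. Points are arrays, shaped by replicate number, horizontal bars with whiskers are mean ± SD (n = 3), and the grey band is the range of the random control row over the arrays (5.05 to 5.40). Chka, Chkb, Pcyt2 and Pemt show no overlap of the groups, and Pcyt1b and Pemt lie close to the band.

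The next enzyme of the choline route, CTP:phosphocholine cytidylyl transferase, is its usual rate-limiting step and is known to be regulated largely by binding to membranes. The gene of its alpha form, Pcyt1a, had log2 intensities of 8.16, 7.84 and 7.60 with tea. Its control values were 7.31, 8.12 and 7.93. The groups overlapped fully, with a difference of 0.08 ± 0.33 (SE, interval -0.65 to 0.81). Leaving out control replicate 1 made it -0.16 and leaving out control replicate 2 made it 0.25, so that no direction held. The beta form, Pcyt1b, best known from brain and gonads, lay between 5.30 and 5.83 over all 6 arrays, within 0.61 log2 units of the random control row. Its difference was -0.02 ± 0.30, and a difference was not detectable at this signal.

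Cept1, which joins CDP-choline or CDP-ethanolamine to diacylglycerol in the last step, was 7.82, 8.18 and 7.28 with tea. In controls it was 7.68, 8.32 and 8.53. The groups overlapped because control replicate 1 lay below tea replicates 1 and 2. The difference was -0.42 ± 0.36 (SE, interval -1.21 to 0.37), and it ran from -0.18 without tea replicate 3 to -0.67 without control replicate 1. Along the choline route, the intervals of Chka and Chkb lay below 0, while those of Pcyt1a, Pcyt1b and Cept1 included 0. The interval of Cept1 overlapped that of Chkb, and Pcyt1b was too dim to show a difference. These intervals therefore do not set the steps of the route apart.

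In the PEMT route, Pcyt2, the ethanolamine-phosphate cytidylyl transferase that controls the flow into phosphatidylethanolamine, had log2 intensities of 8.59, 8.19 and 8.50 with tea. The control values were 9.96, 9.21 and 9.48. All tea arrays were below all controls, and the tea arrays lay close together at 8.43 ± 0.21 against 9.55 ± 0.38 (SD, n = 3 each). The difference was -1.13 ± 0.32 (SE, interval -1.83 to -0.42), or 2.18-fold lower, and with 1 array left out it stayed between -1.30 and -0.92.

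Pemt, the methyltransferase that converts phosphatidylethanolamine to phosphatidylcholine, had log2 intensities of 5.87, 5.81 and 5.52 with tea. In controls it was 6.50, 6.12 and 6.36. The groups did not overlap, but the difference of -0.59 ± 0.29 had an interval that reached 0.06 (SE, -1.24 to 0.06). Although Pemt is known as a liver gene, its probe was dim on every array, 0.37 to 0.82 log2 units above the random control row with tea and 1.02 to 1.32 in controls. The size of a difference measured so close to that row is uncertain.

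Chdh, the choline dehydrogenase that starts the oxidation of choline to betaine, had log2 intensities of 10.86, 10.52 and 10.42 with tea. In controls it was 9.26, 10.26 and 10.64. Control replicate 1 alone was far below the other arrays, and control replicate 3 lay above tea replicates 2 and 3. The difference was 0.55 ± 0.39 (SE, interval -0.31 to 1.40), and 0.15 without control replicate 1.

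**Figure D2:**
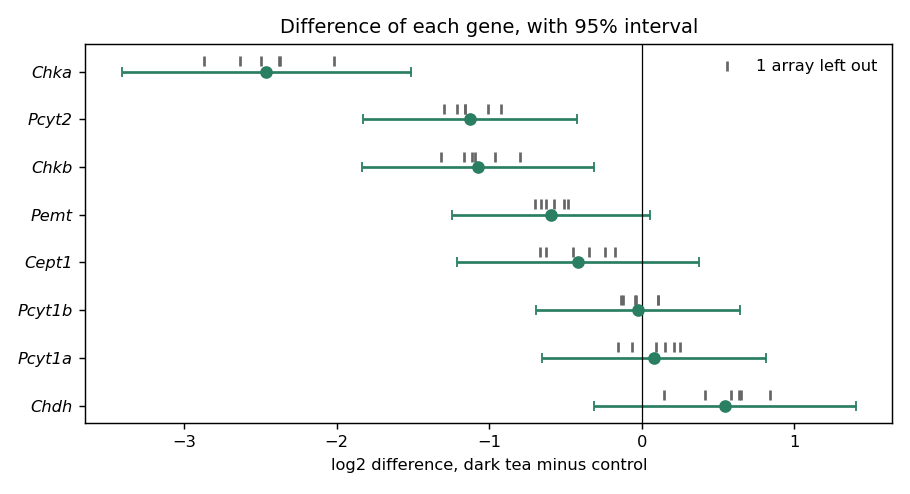
Difference in mean log2 intensity, dark tea minus control, for the 8 genes in order of size. Green points and bars are limma's estimate and 95% confidence interval from 6 arrays, and grey ticks are the 6 estimates with 1 array left out. Intervals of Chka, Pcyt2 and Chkb lie below 0, and those of Pemt, Cept1, Pcyt1b, Pcyt1a and Chdh include it.

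Setting choline kinase beside the other routes, the log2 ratio of Chka to Pemt on the same array was 1.02, 0.56 and 0.87 with tea. In controls it was 2.44, 2.07 and 3.54. The ratio shifted by -1.87 ± 0.46 with tea (SE, n = 3 each), and the groups did not overlap. The Pemt probe was so near the random control row that the size of this shift is uncertain. For Chka to Chdh the log2 ratio was -3.97, -4.15 and -4.02 with tea. In controls it was -0.32, -2.07 and -0.74. It shifted by -3.01 ± 0.53 with tea, and the tea arrays agreed closely at an SD of 0.092 against 0.92 in controls. Against Pcyt2 the shift of Chka was -1.33 ± 0.50, with an interval that reached 0.041, and against Pcyt1a -2.54 ± 0.59. Such ratios compare the changes of probes, not the levels of their genes. All have Chka, known beforehand for the size of its difference, as a term, so that they are descriptions and support nothing about the other genes.

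**Figure D3:**
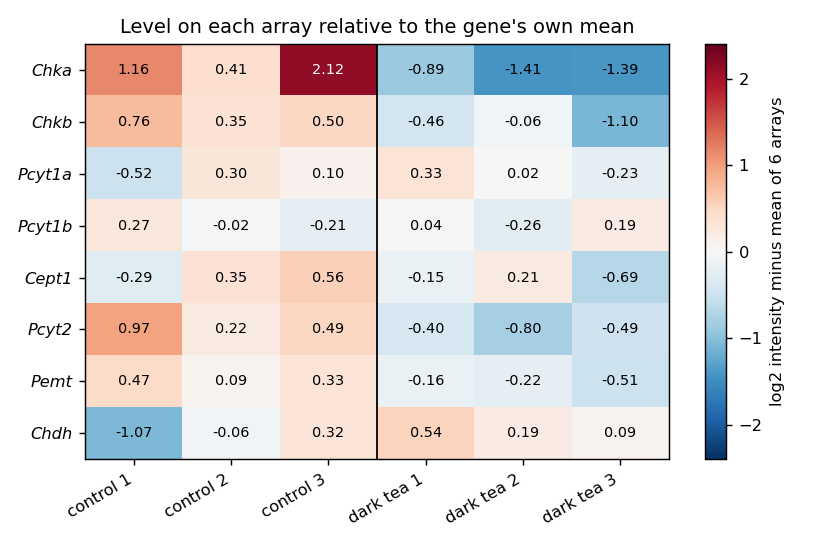
Log2 intensity of each gene on each array minus the gene's mean over the 6 arrays, with control arrays to the left of the line and dark tea arrays to the right. Red is above and blue below the mean; Chka runs from 2.12 in control replicate 3 to -1.41 in tea replicate 2, while Chdh is at -1.07 in control replicate 1.

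Across all 8 genes, 6 had lower and 2 higher means with tea, and the median difference was -0.51, beside a median of -0.0022 over all probes. In the fit across all probes (limma, Benjamini-Hochberg adjustment, threshold 0.05), 0 of 8 passed, where 0.00379% of probes did so. With arrays weighted by their scatter, 1 of 8 passed, beside 0.102% of probes. At an unadjusted p under 0.05, 3 of 8 differed (Chka, Chkb and Pcyt2), beside 4.23% of all probes. The groups did not overlap, with tea lower, for 4 of 8, beside 5.54% of all probes. The genes were proposed with this comparison known, so nothing is read from these shares. Without control replicate 1 the count was 5 of 8, with Cept1 added, beside 11.1% of probes, and with any other single array omitted it was 4, beside 9.23% to 11.1%.

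Control replicate 1 stood apart over the whole array. Its correlation with each other array over all probes was 0.884 to 0.899, against 0.945 to 0.972 among the remaining 5. The differences of Chka, Chkb, Pcyt2 and Pemt without it were -2.50, -0.96, -0.92 and -0.51, close to those with all arrays. Defining hepatocyte markers were bright on all arrays: the summed intensity of 10 markers, albumin and transthyretin among them, ran from 231280 to 262588 with tea and from 241305 to 272345 in controls, and 0 of 10 were within 1 log2 unit of the random control row. Of the lists of other cell types, the summed level of 5 stellate cell markers did not overlap between groups, at 1289 to 1440 with tea and 890 to 1192 in controls. That of 5 pancreatic acinar markers did not overlap either, at 212 to 241 and 265 to 291, with 4 of the 5, Cpa1, Prss1, Cela1 and Pnlip, close to the random control row. All 5 stellate genes had higher and all 5 acinar genes lower means with tea. The same held for other lists, as all 4 lymphocyte genes were higher and all 4 cholangiocyte genes lower. Their median differences were small, at 0.13 and -0.18. The lymphocyte gene Nkg7 and the cholangiocyte genes Krt19 and Cftr were close to the random control row. Of the periportal and of the pericentral genes, 5 of 6 were higher. Non-overlapping groups were seen for 1 of 5 stellate, 0 of 5 acinar, 2 of 6 periportal, 1 of 6 pericentral and 1 of 4 adipocyte genes and for none of the other lists, beside 10.4% of all probes. The summed levels of the pericentral, periportal, macrophage, endothelial, cholangiocyte, lymphocyte and adipocyte lists overlapped between groups. The part of these cell types in the results was not tested.

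The wider pathway was taken as 77 genes in 8 lists, of which 46 had a named probe. Of these, 18 had higher and 28 lower means with tea, and the median difference was -0.079. With limma, 0 of 46 passed over all probes, and 2 of 46, Agpat4 and Lypla1, differed at an unadjusted p under 0.05, the probe shares being those given above. The groups did not overlap for 7 of 46, beside 10.4% of all probes, and for 15 of 46 without control replicate 1, beside 21.1%. With any other single array omitted it was 10 to 12 of 46, beside 16.9% to 21.8%. Every difference was smaller in size than that of Chka, from -0.81 for Agpat4, whose tea arrays were at the level of the random control row, to 0.83 for Gpcpd1, which was 0.12 without control replicate 1.

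Among 7 measured choline transport genes, the median difference was -0.015. Flvcr2 differed by -0.32 ± 0.36 (SE), with control replicate 2 above the rest. The difference was -0.016 without that array and -0.84 with arrays weighted by their scatter. In the ethanolamine and phosphatidylserine list only Ptdss1, which makes phosphatidylserine from phosphatidylcholine, had a probe, and its difference was -0.29 ± 0.28 with no overlap of the groups. The diacylglycerol list had 4 of 5 genes lower, led by the acyltransferase gene Agpat4 at -0.81 ± 0.36. Its tea arrays were at 5.11, 5.25 and 4.87, at the level of the random control row, and the difference was -0.51 without control replicate 2. Gpam, the mitochondrial glycerol-phosphate acyltransferase gene, differed by -0.58 ± 0.38, and lay between -0.88 and -0.33 with single arrays omitted.

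In the list of choline oxidation and betaine use, 3 of 4 measured genes had lower means. Bhmt, the gene of betaine-homocysteine methyltransferase, was among these 3, but its difference was only -0.050 ± 0.34 (SE) and the groups overlapped. Dmgdh, which demethylates the dimethylglycine left after betaine has given up a methyl group, was 10.45, 10.43 and 10.50 with tea and 10.98, 10.98 and 10.80 in controls. The groups did not overlap and differed by -0.46 ± 0.28 (SE). Bhmt2, a homocysteine methyltransferase gene, differed by -0.48 ± 0.30, and control replicate 1 lay among the tea arrays. Among 6 genes of S-adenosylmethionine supply and use, the median was -0.38. Gamt, which spends S-adenosylmethionine on creatine, differed by -0.46 ± 0.29 with no overlap of the groups. Gnmt, which disposes of its excess, differed by -0.50 ± 0.34, and its tea arrays at 8.45, 8.48 and 8.69 overlapped with control replicate 1 at 8.47. Omitting control replicate 1 gave a Gnmt difference of -0.79 and omitting control replicate 3 gave -0.25.

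In the remodelling and turnover list, 9 of 12 genes had lower means, with a median of -0.20. Lypla1, a lysophospholipase gene, was 9.41, 9.75 and 9.32 with tea and 10.13, 10.08 and 10.31 in controls, without overlap and with a difference of -0.68 ± 0.29 (SE). With arrays weighted by their scatter that difference was -0.49. Gpcpd1, whose enzyme breaks down glycerophosphocholine, differed by 0.83 ± 0.55 with control replicate 1 at 4.76, and by 0.12 without that array. Of 5 genes of transfer, export and plasma lipoproteins, 4 had higher means, yet Stard10, a phosphatidylcholine transfer protein gene, went from 0.46 ± 0.52 to -0.24 without control replicate 1. Lcat, which esterifies cholesterol in plasma with an acyl chain from phosphatidylcholine, differed by -0.40 ± 0.31 with no overlap, and by -0.18 without control replicate 3. The sphingomyelin list had a median of 0.10, with the synthase gene Sgms2 at 0.72 ± 0.34 and overlapping groups. Its sphingomyelinase gene Smpd1 turned from 0.38 ± 0.63 to -0.45 without control replicate 1.

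**Figure D4:**
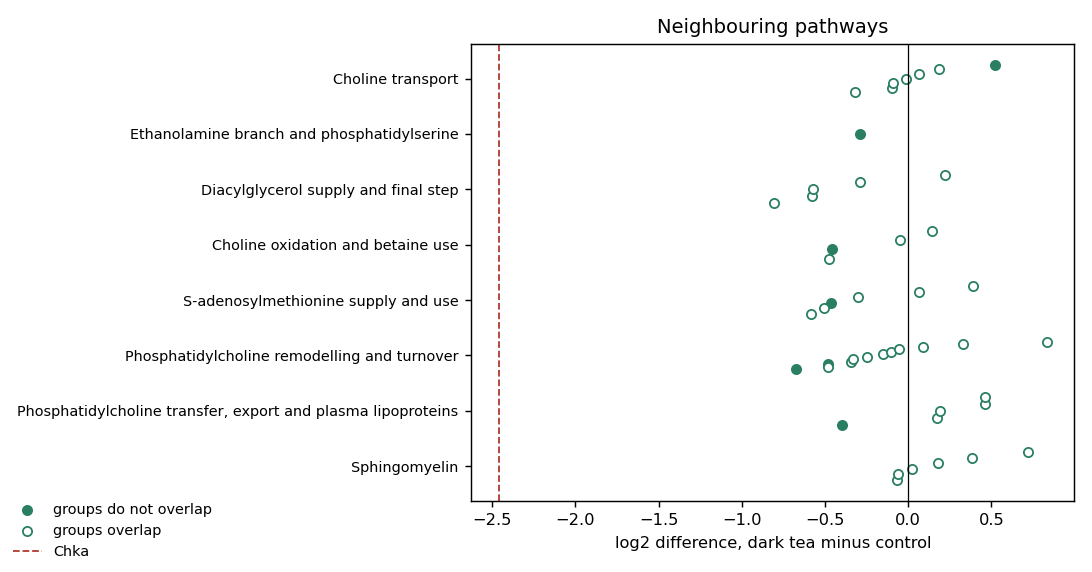
Difference in mean log2 intensity, dark tea minus control, for 46 genes of neighbouring pathways in 8 lists. Filled points are genes whose groups do not overlap (7 of 46), open points those whose groups overlap, and the dashed line is Chka at -2.46; every point lies between -0.81 and 0.83.

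The genes most like Chka over the 6 arrays were sought among the 4871 other named genes whose mean exceeded the median over probes. Likeness was the root mean square distance between log2 values after each gene was centred on its own mean. The closest were Insig2, an endoplasmic reticulum protein that holds back SREBP processing, at a distance of 0.62, and Nfil3, a bZIP repressor, at 0.67. They were followed by Utrn, the gene of utrophin, and the amino acid transporter gene Slc1a4, both at 0.69, and by the taurine transporter gene Slc6a6 at 0.72. Insig2 was 10.95, 10.52 and 10.44 with tea and 11.78, 11.75 and 12.49 in controls. Like Chka, Insig2, Nfil3 and Slc1a4 had their highest value in control replicate 3, whereas Utrn and Slc6a6 had theirs in control replicate 1. The groups overlapped for Nfil3 and Utrn and not for Insig2, Slc1a4 and Slc6a6. Among the other choline genes, Pcyt2 ranked number 20 and Chkb number 51 of 4871, at distances of 0.83 and 0.90, while Cept1 ranked number 694, Pcyt1a number 2494 and Chdh number 3923. Pemt and Pcyt1b were too dim to be ranked. Closest to the sign-turned pattern were Or2d3c, Or2a57 and Sds, each at 0.60, then Npy at 0.62 and Or4a66b at 0.74. As this search selects on the same arrays, it has no test.

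In mouse liver, Chka is known to be under the circadian clock through BMAL1 and the repressor REV-ERB alpha, encoded by Nr1d1. The time of day at which tissue was taken is not given in the labels. Bmal1 was 7.04, 6.97 and 7.11 with tea and 7.03, 9.63 and 10.30 in controls. Its groups overlapped, and its difference was -1.95 ± 0.68 (SE, limma adjusted p = 0.949). Omitting control replicate 1 took the Bmal1 difference to -2.92 (limma adjusted p = 0.0018). Weighting arrays by their scatter took it to -2.63 (limma adjusted p = 0.0113). For any other single array omitted it lay between -1.98 and -1.29, at limma adjusted p from 0.787 to 0.9999. Control replicate 1, the array that stood apart over all probes, had Bmal1 at the level of the tea arrays and Chka at 8.94. Nr1d1 was 7.08, 7.69 and 8.77 with tea and 7.05, 7.54 and 7.23 in controls, and the groups overlapped. Its difference of 0.58 ± 0.42 (SE) was 0.11 without tea replicate 3. Nr1d2, which encodes the related REV-ERB beta, was 9.46, 9.23 and 8.73 with tea and 6.72, 8.26 and 8.56 in controls, with no overlap. Dbp, the probe that passed over all probes (limma, adjusted p = 0.0142), was 9.65, 10.58 and 10.53 with tea and 5.90, 6.59 and 5.42 in controls. That call was lost without control replicate 3 and without any of the 3 tea replicates, at adjusted p from 0.0554 to 0.240. Dbp and Chka separated the groups in opposite directions on all arrays. In control replicate 1, Nr1d2 at 6.72 and Dbp at 5.90 were on the side of the other controls. Whether sampling time bears on the Chka difference was not tested.

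**Figure D5:**
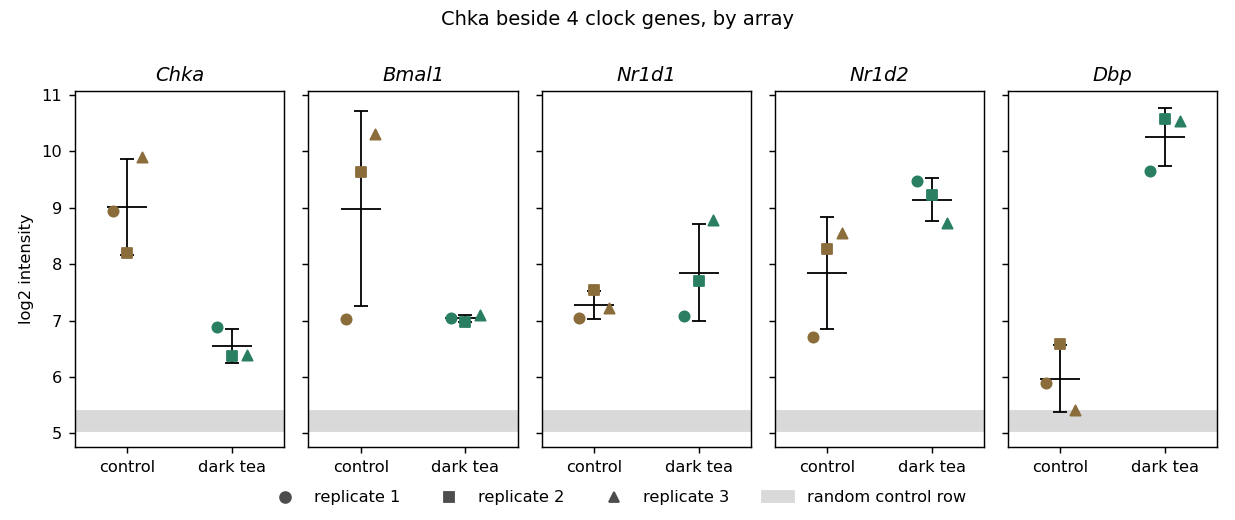
Log2 intensity of Chka and 4 clock genes on each of 6 arrays, control and dark tea. Points are arrays, shaped by replicate number, bars with whiskers are mean ± SD (n = 3), and the grey band is the range of the random control row. In control replicate 1 Bmal1 is at 7.03, level with the tea arrays, and Chka is at 8.94, Nr1d2 at 6.72 and Dbp at 5.90.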

How the data were processed

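Per the labels' protocols, liver total RNA carried a Cy3 label and NimbleGen's procedure was used. The deposited table holds linear intensities, 1 for each RefSeq transcript on each array, and such a row is called a probe here. Values of single oligonucleotides are not given. The submitters' processing notes name RMA without a version. RMA makes the arrays' distributions alike, so total signal cannot be compared. The log2 of each intensity was taken with no further scaling and no filter. The table had 26420 rows, of which 1 random control row was left out of the tests. Probes were named through RefSeq accessions of GRCr8: 1 symbol was found for 9747 probes, several for 0 and none for 16672. For a gene with several probes the highest-mean probe was used. Promoters are RefSeq's on GRCr8 and were found for all 8 genes.

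Tea was compared with control over 26419 probes by a two-sided test in limma 3.58.1 (R 4.3.3), using lmFit, eBayes and Benjamini-Hochberg adjustment, which was checked on simulated data. The simulated errors were independent between probes and no array stood apart, so the check does not cover an array like control replicate 1. Ratios between genes were computed per array, with an SE from the spread over arrays. P-values measure the spread between these arrays, which may be technical, and the number of arrays limits precision. The 8 genes and all lists were chosen with earlier results of these data known. Named genes were the 8, the 2 of smallest p in each of 8 lists, the 5 nearest to Chka in either direction, and the clock genes Bmal1, Nr1d1, Nr1d2 and Dbp. Bhmt was named in addition. A gene that the rule took is not reported here. Alternatives were further normalizations, variance models, array weights, a filter on probes under the 25th percentile, a block for replicate number, omission of single arrays, mean of probes, and an adjusted p under 0.1. The omission of single arrays for counts of genes without overlap was added after the data had been seen.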

Additional observations from a re-analysis of the deposited data

How the results depend on the processing

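Over 13 alternatives, the differences of Chka, Chkb, Pcyt2, Pemt, Cept1 and Chdh kept their direction, while Pcyt1a changed sign in 3 and Pcyt1b in 2. The variance model, the filter on probes, the block for replicate number and the mean of probes leave each difference unchanged by construction. Only array weights, the further normalizations and the omission of arrays could change a direction. The Chka difference lay between -2.87 and -2.02 when single arrays were omitted and between -2.49 and -2.35 under the others, array weights included. With array weights, which gave control replicate 1 a weight of 0.25 and tea replicate 2 one of 4.50, 27 probes passed the correction in place of 1, and 1 of the 8 genes passed, Chka, with a limma adjusted p of 0.0199. Under the 12 other alternatives its adjusted p lay between 0.0844 and 0.9999. Chkb differed by -0.65 with array weights. Leaving out an array, the probes past the correction ranged from 0 to 6, and the wider pathway genes without overlap from 10 to 15 of 46. With the replicate number as a block 0 probes passed. The numbers gave no sign of pairing: deviations of same-numbered arrays correlated at -0.22, 0.013 and -0.25, and 0 of 3 tea arrays were closest to the control of the same number. With 3 arrays in each group this cannot settle whether the samples were paired. Signal close to the random control row limits Pcyt1b, Pemt and the tea level of Chka.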
